A study of Mus musculus with 9 samples.

Results

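Sarcomere assembly factors and chaperones are the muscle proteins that fold myosin, build thin filaments and hold Z-discs and costameres in order while a myotube lays down its contractile apparatus. 10 such genes, chosen by name, are described here across every library of the study: Unc45b, Smyd1, Klhl40, Klhl41, Lmod2, Lmod3, Xirp1, Myoz1, Myoz2 and Smpx. The deposited count files hold 47728 gene IDs, 23515 of them detected in at least 1 library, and all 10 genes were among the 13094 that passed the filter on low counts. C2C12 cells, mouse myoblasts kept as a line and able to form myotubes after a change of serum, were studied as a control, as a Cry1 knockdown and as a Cry2 knockdown. Cry1 and Cry2 are cryptochromes, proteins that repress transcription in the circadian clock. PolyA RNA came from 3 time points of differentiation (days 0, 3 and 5), and each genotype and time point has 1 library, 9 in all. Per the labels, cells of all 3 genotypes grew in 10% fetal bovine serum and were moved at day 0 to 5% horse serum with a 1% supplement of insulin, transferrin and selenium. The labels do not state how the knockdowns were made, what the control received and whether a genotype is 1 clone.

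Several sets of proteins help to build a sarcomere. Myosin heads reach their folded form with the help of the co-chaperone Unc45b and of Hsp90, and the methyltransferase Smyd1 works beside them, as shown in zebrafish. Thin filaments are started by leiomodins, and the Kelch proteins Klhl40 and Klhl41 hold leiomodin 3 and nebulin at a stable level in mouse and human muscle. Z-discs gather alpha-actinin and its binding partners, among them the calcineurin-binding myozenins.

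The libraries held between 4731020 and 6412279 counts. In each, a gene at 0 may have had up to 3 counts, which is 0.439 to 0.634 CPM (counts scaled to library size). Such limits and the Poisson intervals given below cover counting error only. Cry1 was at 8.28, 6.64 and 8.11 CPM in the Cry1 knockdown and at 20.5, 15.8 and 17.4 CPM in the control at days 0, 3 and 5. Cry2 levels were 7.25, 8.24 and 16.6 CPM in its own knockdown and 19.2, 39.6 and 48.8 CPM in the control. Each targeted gene was lower in its own knockdown at every day. All 5 markers of the muscle lineage (Myod1, Myf5, Des, Cdh15 and Mymk) were detected in every library, with a summed level of 2240 to 5780 CPM. All 4 adipocyte markers were at or under the limit of a 0 count, and summed levels of 4 markers each were 0.671 to 2.34 CPM for blood cells and 0.732 to 3.02 CPM for endothelium. Of the fibroblast markers, Thy1 and Tcf21 were at 0 in every library, while the sum of the 4 ran from 16 to 139 CPM and was highest in the control at day 5. The nerve sum, 43.4 to 324 CPM, was nearly all Tubb3. The cardiomyocyte sum, 35.9 to 89.3 CPM, held no Nppa in any library and was mostly Gata4 and Myh6. In the control at days 0, 3 and 5, Gata4 was at 36.1, 35.5 and 31.8 CPM. Myh6 rose there, at 1.32, 11.2 and 53.2 CPM.

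Promoter sequences are shown for Klhl41, Klhl40 and Myoz2, which lie on different chromosomes and, like the other genes described here, rose with differentiation. They are the 3 of the 7 promoters searched that held CAGCTG, so this shared match follows from the choice. Each run gives the 130 bases before the RefSeq start on the strand of the gene, read 5′ to 3′ from GRCm38.p6, with matches to an E-box (CANNTG, bound by MyoD and myogenin) or to the MEF2 site in capitals. The windows are chr2:69669990-69670119 on the plus strand for Klhl41, chr9:121777477-121777606 on the plus strand for Klhl40, and chr3:123034988-123035117 on the minus strand for Myoz2.
Klhl41: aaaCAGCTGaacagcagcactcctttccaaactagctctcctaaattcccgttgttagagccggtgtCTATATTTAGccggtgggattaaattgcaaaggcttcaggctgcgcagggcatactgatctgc
Klhl40: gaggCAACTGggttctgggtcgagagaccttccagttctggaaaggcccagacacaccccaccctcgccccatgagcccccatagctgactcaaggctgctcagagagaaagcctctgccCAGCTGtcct
Myoz2: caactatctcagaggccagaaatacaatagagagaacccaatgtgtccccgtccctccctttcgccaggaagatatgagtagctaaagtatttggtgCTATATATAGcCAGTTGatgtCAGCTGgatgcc

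All 3 windows held CAGCTG, and those of Klhl41 and Myoz2 also held a match to the MEF2 site, at 63 to 54 and at 33 to 24 bases before the start. RefSeq promoters were matched for 7 of the 10 genes (Klhl41, Myoz2, Lmod2, Smyd1, Klhl40, Unc45b and Smpx) and searched over 250 bases before the start on both strands. CANNTG was in 5 of these 7, all but Smyd1 and Smpx, and in 66.2% of 32851 mouse promoters of that length. Its form CAGCTG, which is its own reverse complement, was in 3 of 7 against 13.0% of all, and CACCTG or CAGGTG in 2 of 7 against 17.2%. CACGTG, the E-box form at which clock proteins also act, was in 1 of 7, Unc45b, against 6.02% of all. The MEF2 site was in 2 of 7 against 2.92%, while MCAT (CATTCC or GGAATG, 12.6%), the CArG box (1.47%) and TATAAA on the strand of the gene (7.59%) were in 0 of the 7. All E-box forms overlap CANNTG by definition, and a match describes letters in a window, not a bound site.

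The myosin folding factors come first. Unc45b lies at chr11:82910550-82943403 on the plus strand (mm10), with 21 exon blocks. It was at 2.78, 94.6 and 145 CPM in the control at days 0, 3 and 5, at 9.76, 152 and 198 CPM in the Cry1 knockdown, and at 1.93, 95.7 and 156 CPM in the Cry2 knockdown. The Cry1 knockdown was the highest of the 3 genotypes at every day, and day 0 was far below day 3 in each genotype. Smyd1, at chr6:71213940-71322233 on the minus strand, was at 11.9, 163 and 178 CPM in the control, at 34.5, 261 and 243 CPM in the Cry1 knockdown and at 10.2, 149 and 158 CPM in the Cry2 knockdown. Its 3 Cry1 knockdown libraries were each above the control of the same day, and its 3 Cry2 knockdown libraries each below.

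The Kelch pair followed, both substrate adaptors or stabilisers whose loss gives nemaline myopathy in humans. Klhl40, at chr9:121777607-121783818 on the plus strand, was at 3.80, 60.9 and 108 CPM in the control, at 11.1, 87.8 and 128 CPM in the Cry1 knockdown and at 3.71, 71.8 and 109 CPM in the Cry2 knockdown. Klhl41, at chr2:69670120-69684230 on the plus strand, was at 9.51, 327 and 613 CPM in the control, at 32, 456 and 612 CPM in the Cry1 knockdown and at 11.9, 455 and 787 CPM in the Cry2 knockdown. For both genes the Cry1 knockdown was the highest genotype at day 0, and by day 5 its Klhl41 was level with the control and below the Cry2 knockdown.

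Leiomodins start and lengthen actin filaments at their pointed ends. Lmod2, at chr6:24597762-24605414 on the plus strand, was at 3.37, 98.6 and 186 CPM in the control, at 7.69, 107 and 212 CPM in the Cry1 knockdown and at 2.10, 95.7 and 231 CPM in the Cry2 knockdown. Lmod3, at chr6:97238534-97252759 on the minus strand, was at 6.44, 133 and 273 CPM in the control, at 13.9, 190 and 284 CPM in the Cry1 knockdown and at 5.80, 147 and 308 CPM in the Cry2 knockdown. For both leiomodins the Cry2 knockdown was the lowest genotype at day 0 and the highest at day 5. Its 95% Poisson intervals overlapped those of the control at day 0 and those of the Cry1 knockdown at day 5, for both genes.

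Xirp1 (Xin) binds actin at sites where myofibrils are built or repaired. It lies at chr9:120013755-120023598 on the minus strand and was at 27.5, 91.0 and 266 CPM in the control, at 39.9, 125 and 233 CPM in the Cry1 knockdown and at 16.8, 82.8 and 297 CPM in the Cry2 knockdown. Its day 0 level was the highest of the 10 genes in the control, at 4.71 CPM per kilobase of exon.

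Myozenins (calsarcins) tie calcineurin to alpha-actinin at the Z-disc, Myoz1 mainly in fast fibres and Myoz2 in slow and heart muscle. Myoz1, at chr14:20649107-20656540 on the minus strand, was the weakest of the 10, with 2, 12 and 23 counts in the control, 0, 21 and 60 counts in the Cry1 knockdown and 2, 9 and 34 counts in the Cry2 knockdown. These were 0.293, 2.01 and 4.25 CPM, 0, 3.48 and 10.6 CPM, and 0.322, 1.90 and 6.41 CPM. Every day 0 library of Myoz1 was at or under the limit of a 0 count, so no order of genotypes can be read there. Myoz2, at chr3:123006206-123035015 on the minus strand, was at 0.293, 56.7 and 145 CPM in the control, at 1.18, 103 and 139 CPM in the Cry1 knockdown and at 0.806, 103 and 162 CPM in the Cry2 knockdown. Its day 0 levels rest on 2, 8 and 5 counts, and both knockdowns exceeded the control at day 3.

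Smpx (chisel) is a small protein of the costamere, encoded at chrX:157698910-157752591 on the plus strand. It was at 0.585, 39.6 and 97.6 CPM in the control, at 5.18, 102 and 131 CPM in the Cry1 knockdown and at 0.645, 48.8 and 88.8 CPM in the Cry2 knockdown. The day 0 values are 4, 35 and 4 counts. The Cry1 knockdown stood above both other genotypes at every day, and the other two lay close together.

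**Figure D1:**
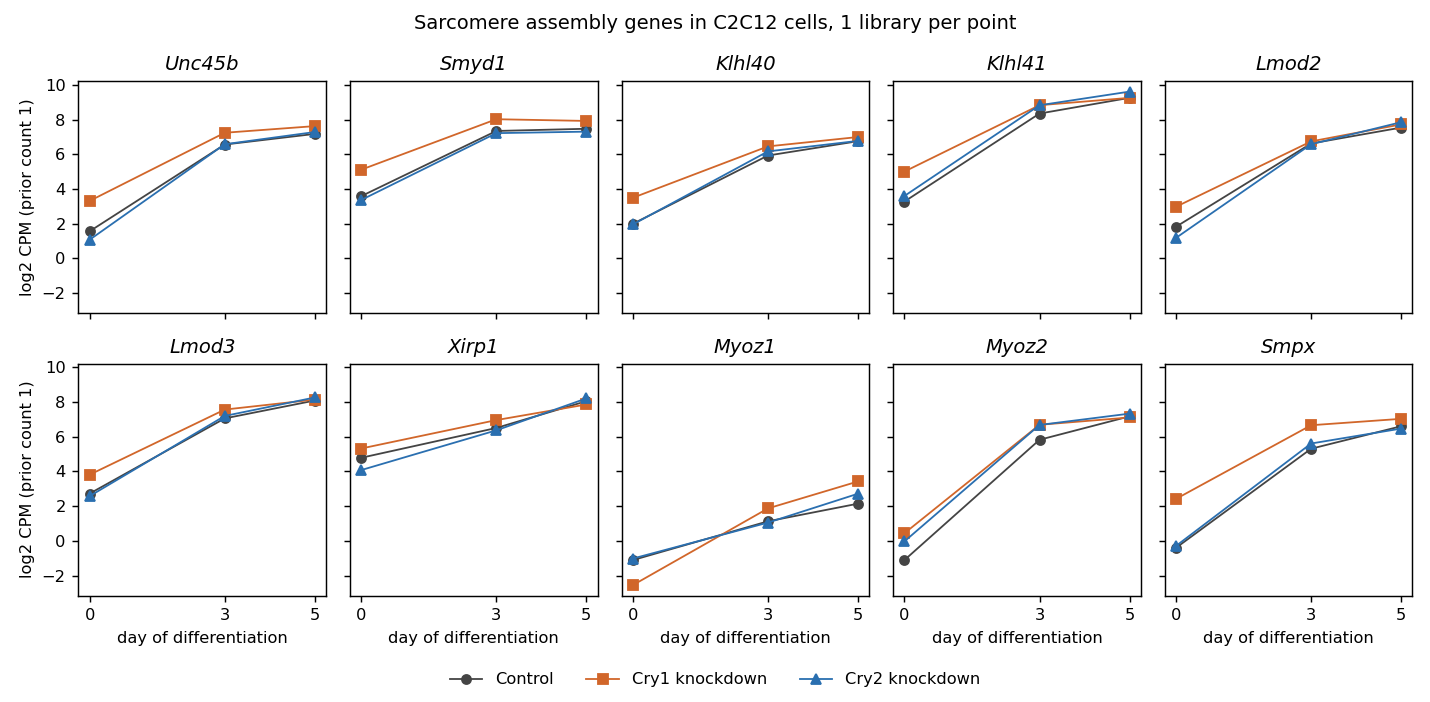
Level of each gene as log2 CPM with a prior count of 1 (y axis) against day of differentiation (x axis), with 1 library per point and lines joining the libraries of 1 genotype. All 10 genes climb from day 0 to day 3 in every genotype; the Cry1 knockdown starts above the other genotypes in all but Myoz1, whose point there is a count of 0.

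Compared per kilobase of exon, Klhl41 was the most abundant of the 10 transcripts in 8 of the 9 libraries, the exception being the control at day 0, where Xirp1 led. At day 5 in the control, Klhl41 stood at 242 CPM per kilobase, Lmod3 at 123 and Lmod2 at 94.4. A close group followed, with Xirp1 at 45.6, Klhl40 at 43.2, Smpx at 42.9, Myoz2 at 42.3, Smyd1 at 39.1 and Unc45b at 32.2 CPM per kilobase. Myoz1 was last at 2.25 CPM per kilobase. Klhl41, Lmod3 and Lmod2 held the first 3 places at day 5 in all 3 genotypes. The order within the close group changed between genotypes: after the first 3 came Smpx in the Cry1 knockdown at day 5, and Xirp1 in the other two.

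The first step of differentiation, day 3 against day 0, was tested with edgeR, in an additive model of genotype and day that used all 3 genotypes, calling genes at a Benjamini-Hochberg adjusted p under 0.05. All 10 genes rose, with a median log2 fold change of 4.35 against 0.01 over all genes tested. Of all genes, 25.4% were called higher and 51.1% called in either direction. Myoz2 rose most, by 6.79 ± 0.30 (log2, SE, 3 libraries per day; adjusted p = 8.7e-07). Smpx rose by 4.88 ± 0.36, Unc45b by 4.59 ± 0.27, Klhl41 by 4.58 ± 0.32, Lmod2 by 4.52 ± 0.26 and Lmod3 by 4.18 ± 0.22. Klhl40 rose by 3.59 ± 0.24 and Smyd1 by 3.42 ± 0.21. Xirp1 rose least, by 1.84 ± 0.24 (adjusted p = 0.000251), or 3.57-fold. Myoz1 rose by 3.47 ± 0.63 (adjusted p = 0.00169), a value that depends on the prior count since its 3 day 0 libraries hold 2, 0 and 2 counts. The p-values set a difference between days against disagreement between genotypes, since no genotype and day has a replicate. In bulk RNA, more differentiated cells in a culture and more of the RNA per cell cannot be told apart.

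From day 3 to day 5 all 10 fitted values lay above 0, and 7 of the 10 genes were called higher. Of all genes, 14.7% were called higher and 27.9% in either direction. The median was 0.83 over the 10 against 0.01 over all genes. Xirp1 rose by 1.46 ± 0.22 (log2, SE; adjusted p = 0.00229), nearly as much as in the first step. Lmod2 rose by 1.06 ± 0.19 (adjusted p = 0.00474), Lmod3 by 0.90 ± 0.17 (adjusted p = 0.00553) and Myoz2 by 0.81 ± 0.17 (adjusted p = 0.00821), and these 4 calls held in all 15 alternative fits. Myoz1 rose by 1.48 ± 0.37 (adjusted p = 0.018), Smpx by 0.85 ± 0.24 (adjusted p = 0.0293) and Klhl40 by 0.66 ± 0.18 (adjusted p = 0.0267). Unc45b, at 0.57 ± 0.20 (adjusted p = 0.0582), and Klhl41, at 0.73 ± 0.26 (adjusted p = 0.0663), did not pass. Smyd1 showed the smallest value, 0.04 ± 0.17 (adjusted p = 0.873).

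3 of the 7 calls depended on single libraries. Without Cry1 knockdown day 3, Cry2 knockdown day 3 or Cry2 knockdown day 5, Klhl40 (adjusted p = 0.116, 0.0623 and 0.102), Myoz1 (0.0794, 0.0859 and 0.0692) and Smpx (0.0661, 0.095 and 0.108) all missed the threshold, and 4 of the 10 genes were called. Over all genes, 2161 of 13008, 2045 of 13019 and 2252 of 13021 were called in those fits. Without Cry1 knockdown day 5, Myoz1 was at 0.126. Without control day 3, Klhl40 was at 0.0762 and Smpx at 0.116, and without control day 5 they were at 0.12 and 0.148. In the DESeq2 Wald test Smpx was at 0.275. In the other direction, Unc45b passed without Cry1 knockdown day 0 (0.00505), Cry1 knockdown day 5 (0.0495) or Cry2 knockdown day 0 (0.0265), and Klhl41 without Cry1 knockdown day 0 (0.00269) or Cry1 knockdown day 5 (0.0294). Both also passed with only the 6 libraries compared (0.00733 and 0.00734) and with no filter on low counts (0.00529 and 0.0022), where 9 of the 10 genes were called each time. Over all genes, 3612 of 12622 and 3792 of 23515 were called in those fits.

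**Figure D2:**
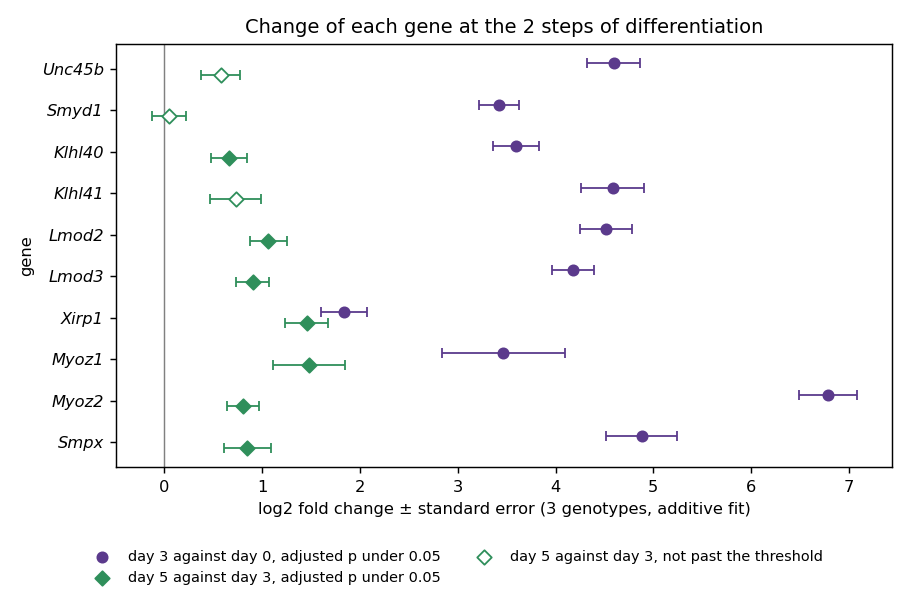
Fitted log2 fold change with its standard error (x axis) for each gene (y axis) at both steps, over the 3 genotypes. Filled symbols passed an adjusted p of 0.05 and open ones did not; Xirp1 has nearly equal steps of 1.84 and 1.46, whereas Smyd1 has 3.42 followed by 0.04.

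The share of the day 5 level already present at day 3 gives the same contrast within each genotype. For Smyd1 it was 91.6% in the control, 107% in the Cry1 knockdown and 94.1% in the Cry2 knockdown. For Unc45b it was 65.4%, 76.6% and 61.4%, and for Xirp1 34.2%, 53.5% and 27.9%. Smyd1 was thus nearest to its day 5 level at day 3 in every genotype. Lmod2 was at 52.9%, 50.6% and 41.4%, and Lmod3 at 48.9%, 67% and 47.7%. Klhl40 was at 56.3%, 68.7% and 65.7%, and Klhl41 at 53.3%, 74.5% and 57.9%. Smpx was at 40.6%, 77.4% and 54.9%, and Myoz2 at 39.1%, 74.6% and 63.5%. Like Smyd1, Klhl40 and Klhl41, both had their lowest share in the control. Myoz1 was at 47.3%, 33% and 29.6% from few counts. The share was highest in the Cry1 knockdown for 8 of the 10 genes, all but Lmod2 and Myoz1. With 1 library per value there is no test of these shares.

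**Figure D3:**
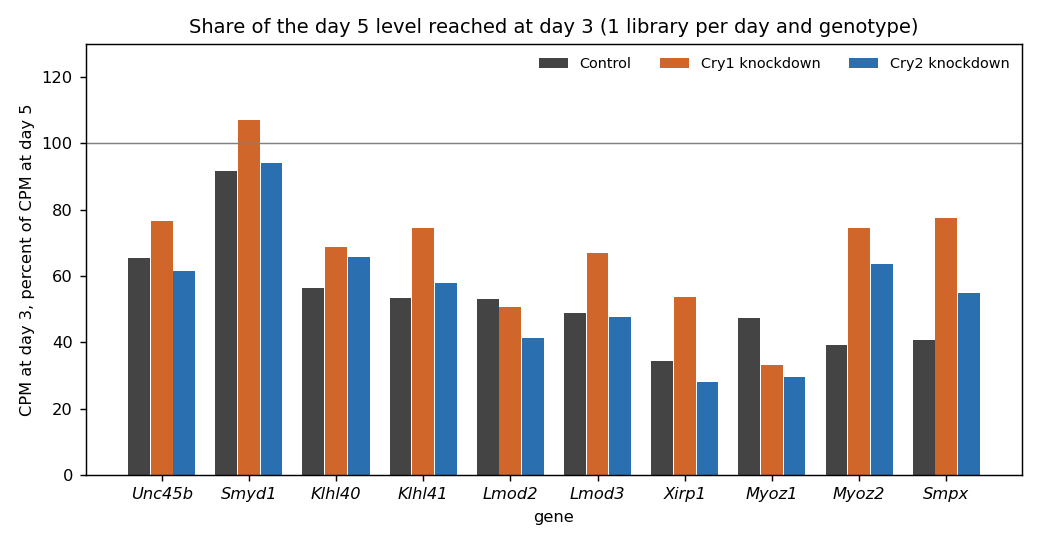
CPM at day 3 as a percent of CPM at day 5 (y axis) for each gene (x axis) in the 3 genotypes, 1 library per day and genotype. Smyd1 bars lie near 100% in all genotypes, and the Cry1 knockdown bar is the tallest for all genes but Lmod2 and Myoz1.

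Cry1 knockdown against control was the next comparison, with 3 libraries a genotype, 1 per day. All 10 genes had a fitted value above 0, with a median log2 fold change of 0.61 against 0.01 over all genes, but none passed the threshold in edgeR, where 2.67% of all genes were called. At an unadjusted p under 0.05 there were 5 of the 10, against 19% of all genes. The DESeq2 Wald test called 1 of the 10, Smyd1 (adjusted p = 0.000674), against 319 of all 13094 genes. Smpx had the largest value, 1.04 ± 0.28 (log2, SE; adjusted p = 0.0901), or 2.06-fold. Myoz1 was at 0.93 ± 0.43 (adjusted p = 0.281), Smyd1 at 0.82 ± 0.19 (adjusted p = 0.0578) and Unc45b at 0.75 ± 0.22 (adjusted p = 0.117). The Kelch genes were at 0.63 ± 0.28 for Klhl41 (adjusted p = 0.271) and 0.59 ± 0.20 for Klhl40 (adjusted p = 0.166). Lmod3 was at 0.45 ± 0.19 (adjusted p = 0.239), Myoz2 at 0.42 ± 0.20 (adjusted p = 0.298), Lmod2 at 0.30 ± 0.22 (adjusted p = 0.498) and Xirp1 at 0.27 ± 0.23 (adjusted p = 0.569). The values stayed above 0 in all 15 alternatives, but their size rested on single libraries. Without Cry1 knockdown day 0 the median was 0.38, with Klhl41 at 0.23, Lmod2 at 0.12 and Xirp1 at 0.05, and without control day 3 Myoz2 was at 0.07. Without a filter on low counts 5 were called (Unc45b, Smyd1, Klhl40, Klhl41 and Smpx), against 919 of 23515 genes. Without Cry1 knockdown day 0 only Smyd1 was called, at 0.56 (adjusted p = 0.0447), against 108 of 12995 genes. A difference between cultures that all 3 days share cannot be told apart from the knockdown.

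Read by day, the distance from the control was greatest at day 0. The median log2 ratio of the 10 genes, with a prior count of 1, was 1.51 (day 0), 0.60 (day 3) and 0.21 (day 5), while the median over all genes tested stayed within 0.02 of 0. At day 0 the ratio was 2.82 for Smpx, 1.75 for Unc45b, 1.73 for Klhl41, 1.53 for Smyd1 and 1.5 for Klhl40. It was 1.15 for Lmod2, 1.09 for Lmod3 and 0.54 for Xirp1, and for Myoz2 and Myoz1 the counts were too few to read. For those 8 genes the 95% Poisson interval of the Cry1 knockdown at day 0 lay above the intervals of both other genotypes. For Smpx it was 3.61 to 7.20 CPM against 0.159 to 1.5 CPM in the control, and for Unc45b 7.55 to 12.4 CPM against 1.67 to 4.34 CPM. At day 5 Klhl41, Myoz2 and Xirp1 were at or under the control, at -0.00, -0.06 and -0.19. Smyd1, Unc45b and Smpx were above it, at 0.45, 0.45 and 0.43. Myoz1 went against the narrowing, at 0.74 on day 3 and 1.28 on day 5, the latter from 60 counts against 23 in the control. With a prior count of 5 the day 0 median was 1.19 and the Smpx ratio 2.07.

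Markers of the differentiated myotube rose with these genes from day 0 to day 3. From day 3 to day 5, edgeR called 0 of the 5 markers (median 0.40) and 7 of the 10 genes (median 0.83). Of all genes, 27.9% were called at that step. The summed level of Myog, Ckm, Acta1, Myh3 and Tnnt3 was 272, 10400 and 15500 CPM in the control at days 0, 3 and 5. It was 797, 15200 and 15800 CPM in the Cry1 knockdown and 178, 12400 and 16700 CPM in the Cry2 knockdown. Myog, the transcription factor of terminal differentiation, was at 58.5 CPM in the control, 179 CPM in the Cry1 knockdown and 35.3 CPM in the Cry2 knockdown at day 0. All 5 markers had values above 0 in the Cry1 knockdown fit, with a median of 0.74, and 1 of them, Ckm, passed (0.84 ± 0.18, adjusted p = 0.0452). The fibroblast marker Dpt, named after its values were seen, was at 2.49, 66.6 and 120 CPM in the control, at 0.444, 18.3 and 39.5 CPM in the Cry1 knockdown and at 0.806, 42.5 and 54.3 CPM in the Cry2 knockdown. It rose from day 0 to day 3 (5.07 ± 0.23, adjusted p = 1.08e-06), was lower in the Cry1 knockdown than in the control (-1.75 ± 0.17, adjusted p = 0.0046) and was higher in the Cry2 knockdown than in the Cry1 knockdown (0.81 ± 0.18, adjusted p = 0.0277). Pdgfra, the other fibroblast marker tested, did not share the pattern of Dpt. In the control it was at 22.1, 9.89 and 19 CPM at days 0, 3 and 5. Of the 2 fibroblast markers tested, edgeR called 1 higher and 1 lower at day 3 than at day 0. In the Cry1 knockdown against the control, Pdgfra was at 0.01 ± 0.20 (adjusted p = 0.988). The part of any of these markers in the result for the assembly genes was not tested.

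**Figure D4:**
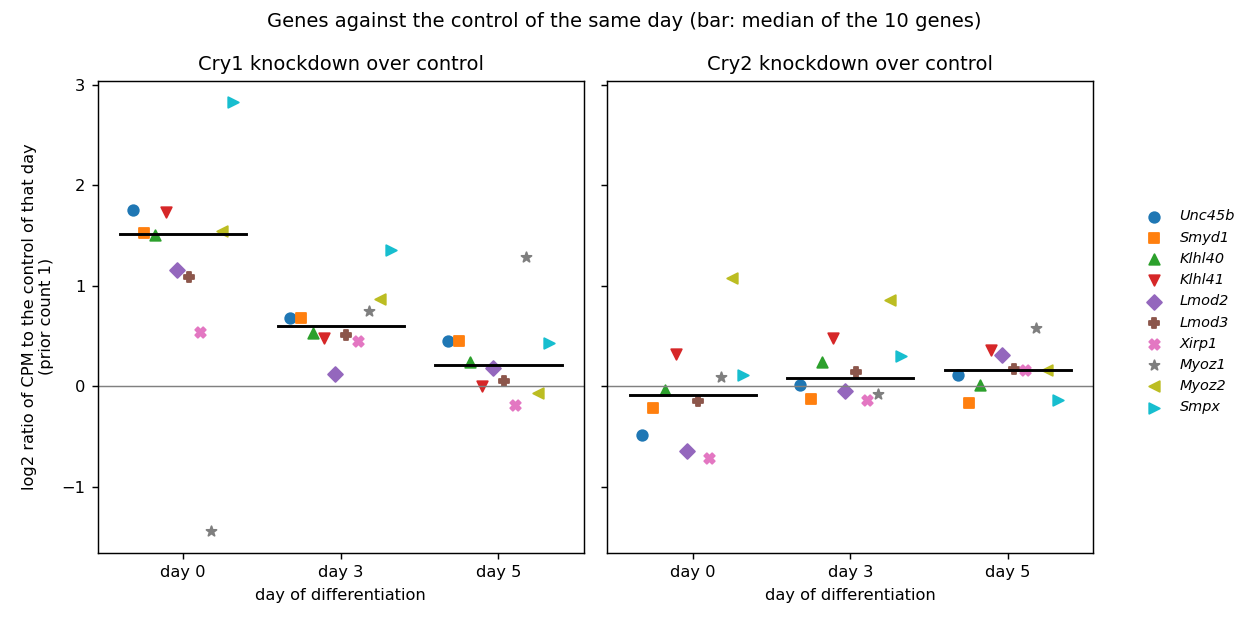
Log2 ratio of CPM to the control of the same day, with a prior count of 1 (y axis), for each gene at each day (x axis), in the Cry1 knockdown (left) and the Cry2 knockdown (right); bars are medians over the 10 genes. Medians in the Cry1 knockdown are 1.51, 0.60 and 0.21, and those in the Cry2 knockdown are -0.09, 0.08 and 0.16; the low Myoz1 point is a count of 0.

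Whether the change from day 0 to days 3 and 5 differed between the Cry1 knockdown and the control was tested by an interaction of genotype with stage in edgeR, over 13608 genes. None of the 10 genes was called, and 0 of all genes were (0%). 8 of the 10 had an unadjusted p under 0.05, against 4.92% of all genes, and DESeq2 called 0 of the 10. The values for 9 of the 10 lay under 0, with a median of -1.09 against -0.02 over all genes. Klhl41 was at -1.5 ± 0.28 (log2, SE, adjusted p = 0.353). It alone of the 10 was called without a filter on low counts (adjusted p = 0.00507), where 72 of 23515 genes were called. Unc45b was at -1.23 ± 0.31 (adjusted p = 0.707), Klhl40 at -1.16 ± 0.28 (adjusted p = 0.652) and Smyd1 at -0.97 ± 0.20 (adjusted p = 0.528). Lmod2 was at -1.03 ± 0.31 and Lmod3 at -0.82 ± 0.33, while Xirp1 had the smallest value, -0.39 ± 0.38. Smpx, at -2.22 ± 0.86, and Myoz2, at -1.57 ± 1.35, have few counts at day 0, and the value for Myoz1, 4.98 ± 1.96, depends on the prior count, since its Cry1 knockdown library at day 0 has 0 counts. The 5 myotube markers also had an unadjusted p under 0.05 and values under 0, with a median of -1.18, and their part was not tested here either.

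Cry2 knockdown against control gave small values in both directions. In edgeR none of the 10 genes was called, against 0.084% of all genes, and DESeq2 called 0 of the 10. At an unadjusted p under 0.05 there was 1 of the 10, Myoz2, against 12.2% of all genes. Myoz2 was at 0.49 ± 0.20 (log2, SE; adjusted p = 0.369), and it exceeded the control by 0.86 (day 3) and 0.16 (day 5) on the log2 scale. Klhl41 was at 0.39 ± 0.28 (adjusted p = 0.619) and was above the control at every day, by 0.32, 0.48 and 0.36. Smyd1 was at -0.15 ± 0.19 (adjusted p = 0.795) and was under the control at every day, by -0.22, -0.13 and -0.17. The other 7 had fitted values from -0.13 for Xirp1 to 0.32 for Myoz1. The values of Unc45b, Klhl40, Lmod2, Lmod3, Xirp1, Myoz1 and Smpx changed sign when 1 library was left out. In the Cry2 knockdown at day 0, Lmod2 and Xirp1 were lower than the control by log2 ratios of -0.64 and -0.71, and at day 5 they were higher by 0.31 and 0.16. The day 0 ratio of Lmod2 rests on 13 counts against 23 in the control, with overlapping Poisson intervals. With a prior count of 5 it was -0.52. For Xirp1 the day 0 counts were 104 against 188.

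The interaction for the Cry2 knockdown also called none of the 10 genes in edgeR or in DESeq2. None had an unadjusted p under 0.05 either, against 6.01% of all genes, and 0.0367% of all genes were called. 8 of the 10 values lay above 0, with a median of 0.19 against 0.00 over all genes, the most precise of the larger ones being Lmod2 at 0.83 ± 0.40 and Xirp1 at 0.75 ± 0.41. The comparisons with the control share its 3 libraries.

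Set against each other, the knockdowns had 1 of the 10 genes called, a count near the 7.93% of all genes called. In edgeR, 9 of the 10 fitted values lay under 0, against 6835 of all 13094 genes. At an unadjusted p under 0.05 there were 4 of the 10, against 3375 of all genes. Smyd1 was lower in the Cry2 knockdown than in the Cry1 knockdown by -0.97 ± 0.19 (log2, SE; adjusted p = 0.0192), or 0.51 times the level, where 3.69% of all genes were called lower, 4.24% higher and 7.93% in either direction. Smyd1 was lower in the Cry2 knockdown at every day, at 10.2 against 34.5 CPM, 149 against 261 CPM and 158 against 243 CPM. The adjusted p was 0.0617 without Cry1 knockdown day 3, 0.0551 without Cry2 knockdown day 0, 0.0711 without Cry2 knockdown day 3 and 0.0529 without Cry2 knockdown day 5, and the call held in 11 of the 15 alternatives. Smpx, at -0.98 ± 0.28 (adjusted p = 0.0661), and Unc45b, at -0.72 ± 0.23 (adjusted p = 0.084), did not pass. Smpx passed without Cry1 knockdown day 5 (-1.42, adjusted p = 0.0392), Unc45b without Cry1 knockdown day 0 (-0.52, adjusted p = 0.0466), and both without a filter on low counts. Without that filter 1528 of 23515 genes were called. Values of the remaining 7 ran from -0.61 for Myoz1 to 0.07 for Myoz2, and the median of the 10 was -0.44 against -0.02 over all genes. Ckm was the 1 of the 5 myotube markers called lower in this comparison (-0.84 ± 0.18, adjusted p = 0.0256).

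Pairs of related genes were compared per length. Klhl41 exceeded Klhl40 by 2.47 to 3.18 times at day 0 and by 4.74 to 7.11 times at days 3 and 5. Lmod3 exceeded Lmod2 by 1.61 to 2.47 times at day 0 and by 1.19 to 1.58 times later, with 1.61 at day 0 and 1.58 at day 3 in the Cry1 knockdown. Myoz2 exceeded Myoz1 by 7.24 to 29.8 times at days 3 and 5, lowest in the Cry1 knockdown at day 5, and no ratio was taken at day 0. Unc45a, the general relative of Unc45b, fell from day 0 to day 3 by 0.55 ± 0.09 on the log2 scale (adjusted p = 0.00132). Unc45b was at 0.0438 to 0.234 times Unc45a per length at day 0 and at 3.22 to 8.25 times at days 3 and 5, so that the order of the pair changed in every genotype. These ratios are given with no test of their own.

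Relatives of the 10 genes were called in both directions. Of 16 listed relatives 11 were tested, and from day 0 to day 3, 6 were called higher and 4 lower, with a median of 0.56, where 25.4% of all genes were called higher and 25.7% lower. Tmod1, a tropomodulin that caps thin filaments in muscle, rose by 3.42 ± 0.13 (adjusted p = 5.73e-07). Klhl31 rose by 2.47 ± 0.27 (adjusted p = 9.13e-05), Lmod1 by 1.25 ± 0.34 (adjusted p = 0.0137) and Xirp2, the relative of Xirp1, by 1.01 ± 0.36 (adjusted p = 0.0408). From day 3 to day 5, 1 of the 11 relatives was called higher and 2 lower, where 14.7% of all genes were called higher and 13.2% lower. Xirp2 rose by 2.07 ± 0.30 (adjusted p = 0.00201), while Smyd4 (-0.67 ± 0.11, adjusted p = 0.00298) and Smyd2 (-0.45 ± 0.10, adjusted p = 0.0106) fell.

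As a count, calls among chaperones at the first step were near the shares over all genes. Of 21 tested, 5 were called higher and 7 lower from day 0 to day 3, with a median of -0.11, where 25.4% of all genes were called higher and 25.7% lower. The 4 largest changes among those called were in small heat shock proteins: Hspb3 (6.40 ± 0.55, adjusted p = 2.24e-05, from 0 or 1 counts at day 0), Hspb7 (5.99 ± 0.30, adjusted p = 1.37e-06), Hspb2 (2.53 ± 0.13, adjusted p = 1.66e-06) and Cryab (1.73 ± 0.11, adjusted p = 4.8e-06). Not all small heat shock proteins rose: Hspb6 fell by 0.49 ± 0.14 on the log2 scale (adjusted p = 0.0191), and Hspb1 was at -0.03 ± 0.09 (adjusted p = 0.805), both named after their values were seen. Hsp90aa1, which encodes the inducible form of the Hsp90 that works with Unc45b and was named after its values were seen, went the other way. It was at 1250, 770 and 533 CPM in the control at days 0, 3 and 5, and fell by 0.82 ± 0.13 on the log2 scale from day 0 to day 3 (adjusted p = 0.000794). From day 3 to day 5, 2 chaperones were called higher and 6 lower, where 14.7% of all genes were called higher and 13.2% lower. Hspb7 (1.65 ± 0.17, adjusted p = 0.000668) and Hspb8 (0.51 ± 0.12, adjusted p = 0.0133) rose, and Hspa8 (-0.60 ± 0.13, adjusted p = 0.0114) and the co-chaperone Stip1 (-0.49 ± 0.10, adjusted p = 0.00712) were among those that fell.

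Thin filament, Z-disc and costamere partners largely rose at both steps. Of 22 tested, 16 were called higher and 1 lower from day 0 to day 3 (median 2.44), and 15 higher and 1 lower from day 3 to day 5 (median 0.66). Over all genes, 25.4% and then 14.7% were called higher. The largest changes at the first step were in the Z-disc genes Myot (6.70 ± 1.20, adjusted p = 0.00311, from 0 counts in all 3 day 0 libraries), Actn2 (6.60 ± 0.33, adjusted p = 1.34e-06), Tcap (6.31 ± 0.47, adjusted p = 9.63e-06) and Csrp3 (6.21 ± 0.42, adjusted p = 5.93e-06). Tcap and Csrp3 also have day 0 libraries at 0 counts, and such fitted values depend on the prior count. Large changes at the second step included those in Myot (2.74 ± 0.42, adjusted p = 0.00435), Neb (1.91 ± 0.30, adjusted p = 0.0027) and Mypn (1.83 ± 0.20, adjusted p = 0.000693). Wdr1, a cofactor of actin disassembly, was the 1 partner called lower at both steps (-0.79 ± 0.08, adjusted p = 5.28e-05, and -0.46 ± 0.08, adjusted p = 0.00388).

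Among themselves the 10 genes followed nearly 1 profile over the 9 libraries. Pearson's r of each gene with the mean standardised log2 CPM of the 10 was 0.9993 for Lmod3 and 0.9972 for Klhl40, and was lowest for Smyd1 (0.9779), Xirp1 (0.954) and Myoz1 (0.9119). Unc45b was most like Klhl40 (0.9975) and Smyd1 most like Unc45b (0.9931). Of 11685 other genes searched, the 10 with the nearest profile were Coq8a (0.9982), Tmem252 (0.9979), Myom1 (0.9979), Cap2 (0.9976), Mef2d (0.9974), Myl1 (0.9974), Myh3 (0.9973), Ppfia4 (0.9972), Hrc (0.9968) and Pygm (0.9967). These values describe likeness only: the libraries fall into day 0 and later days, and that gap sets most of each r.

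Counting limits touch a few of the genes. The library kit, TruSeq RNA v2, does not keep strand, and 9.04% of the exon bases of Unc45b overlap genes on the other strand (Slfn5os, at 0 to 2 counts, and Unc45bos, at 0 to 1). For Klhl40, 21.6% overlap a gene model on the minus strand that has no row in the files. Of the 50-base words in the longest transcript, 17.5% in Klhl40, 7.6% in Unc45b and 4.68% in Klhl41 also occur in transcripts of other genes. The longest transcripts of Smyd1, Lmod2, Lmod3, Xirp1, Myoz1, Myoz2 and Smpx share no such word with any transcript of another gene.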

How the data were processed

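PolyA RNA-seq libraries of C2C12 cells (9 libraries, 1 for each genotype and day) were analysed from the raw counts per gene that the authors deposited. Per the submitters' processing notes, CASAVA 1.8, HISAT2 2.0.2, featureCounts 1.4.6 of Subread and mm10 were used; the strand setting is not given in the sources used here. Symbols, positions and exon lengths came from a GENCODE annotation of mm10 (47223 of 47728 IDs matched a symbol), and promoters from RefSeq (GRCm38.p6).

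The main tool was edgeR 4.0.16 with limma 3.58.1 under R 4.3.3: TMM scaling, filterByExpr and quasi-likelihood F tests, with Benjamini-Hochberg adjustment over all genes tested. Genotypes and days were compared in 1 additive model of the 9 libraries, with 13094 genes and 4 residual degrees of freedom. Responses are interactions of genotype with stage (day 0 or later) beside a common day 5 term, with 13608 genes and 2 residual degrees of freedom. SE is the absolute log2 fold change over the square root of F. Depth limits precision at day 0, where several genes have under 10 counts. Alternatives were RLE size factors, no filter, 1 CPM in 3 libraries, the DESeq2 1.42.0 Wald test, only the 6 libraries compared, each library left out, a prior count of 5 within days and, added after the data were seen, no mitochondrially encoded genes.

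Members and lists were chosen with earlier results of these data known. All 10 members were named, and of other lists up to 4 called genes with the largest change per comparison; a gene that this rule selects is withheld for evaluation and is not reported here. Python 3.11.15, numpy 2.4.6, pandas 2.3.3 and matplotlib 3.10.9 drew the figures.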

Additional observations from a re-analysis of the deposited data

How the results depend on the processing

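No paired analysis was possible because each genotype and day has 1 library and no replicate number beyond it; the additive model already compares genotypes within days. All 10 genes were called higher at day 3 than at day 0 in all 15 alternatives. Without a filter on low counts, genes of the 10 called were 5 (Cry1 knockdown against control), 3 (between knockdowns) and 1 (Cry1 response). Of the 23515 genes tested there, those called were 919 and 316 (Cry1 and Cry2 knockdown against control), 1528 (between knockdowns) and 72 and 48 (Cry1 and Cry2 responses). In the DESeq2 Wald test 1 of the 10 was called for the Cry1 knockdown, against 319 of all 13094 genes. All genes called in that test were 85 (Cry2 knockdown), 660 (between knockdowns), 2382 (day 5 against day 3), 15 and 10 (responses). There, Unc45b (-0.0409) and Lmod2 (-0.0184) changed sign for the Cry2 knockdown. The filter of 1 CPM in 3 libraries gave 6 genes for the Cry2 knockdown, the 6 libraries compared gave 203 and 5 for the Cry1 and Cry2 knockdowns, and leaving out mitochondrially encoded genes gave 1 for the Cry2 response. The cause was not tested.

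With each library left out in turn (for the responses, only the 6 libraries of days 3 and 5), all genes called ranged from 27 to 366 (349 with all libraries; 27 without Cry1 knockdown day 3) for the Cry1 knockdown, from 0 to 17 (11; 0 without Cry2 knockdown day 5) for the Cry2 knockdown, from 258 to 1134 (1038; 258 without Cry1 knockdown day 3) between knockdowns, from 2045 to 3739 (3653; 2045 without Cry2 knockdown day 3) for day 5 against day 3, from 0 to 36 (0; 36 without control day 3) for the Cry1 response and from 5 to 37 (5; 37 without control day 5) for the Cry2 response. Of the 10, calls ranged from 0 to 1 for the Cry1 knockdown, 0 to 2 between knockdowns and 4 to 9 for day 5 against day 3. Log2 values that changed sign, none of them called, ranged for the Cry2 knockdown from -0.17 to 0.14 (Unc45b), -0.00605 to 0.28 (Klhl40), -0.18 to 0.21 (Lmod2), -0.0725 to 0.24 (Lmod3), -0.50 to 0.0890 (Xirp1), -0.12 to 0.48 (Myoz1) and -0.15 to 0.49 (Smpx). They ranged between knockdowns from -0.60 to 0.16 (Klhl41) and -0.22 to 0.31 (Myoz2), for day 5 against day 3 from -0.0591 to 0.23 (Smyd1), for the Cry1 response from -0.80 to 0.00579 (Xirp1), and for the Cry2 response from -0.0549 to 0.25 (Klhl41), -0.15 to 0.43 (Myoz1) and -0.39 to 0.32 (Smpx). Low counts at day 0 limit Myoz1, Myoz2 and Smpx.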

Other observations

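In the Cry1 knockdown against the control, where 2.67% of all genes were called, Nrap, a scaffold of early myofibrils, was higher by 0.75 ± 0.15 (log2, SE; edgeR adjusted p = 0.038) and Pdlim3, a Z-disc protein, by 0.73 ± 0.10 (adjusted p = 0.0115), 2 of 22 partners. Smyd5, a relative of Smyd1 that is not restricted to muscle, was higher by 0.50 ± 0.10 (adjusted p = 0.0433), at 64.3, 49.3 and 44.6 CPM against 49.9, 30.9 and 32 CPM in the control at days 0, 3 and 5.

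Between the knockdowns, 4 of 21 chaperones were higher in the Cry2 knockdown and 0 lower, where 4.24% of all genes were called higher and 3.69% lower. Cryab, alpha B-crystallin, was at 140, 587 and 529 CPM in the Cry2 knockdown and at 113, 340 and 327 CPM in the Cry1 knockdown (0.61 ± 0.11, adjusted p = 0.0152). Hspb1 was higher by 0.59 ± 0.09 (adjusted p = 0.00946) and Hspa1b by 0.80 ± 0.21 (adjusted p = 0.0482). Hspa1a, higher by 2.17 ± 0.50 (adjusted p = 0.0329), rests on 3, 1 and 6 counts in the Cry1 knockdown, and its reads may be split with the near-identical Hspa1b. In the same comparison 4 of 22 partners were lower in the Cry2 knockdown and 0 higher. Actn2, alpha-actinin 2, was at 0.645, 96.8 and 214 CPM against 4.44, 454 and 436 CPM (-1.71 ± 0.25, adjusted p = 0.0066). Ankrd2 (-1.05 ± 0.23, adjusted p = 0.03), Nrap (-0.70 ± 0.15, adjusted p = 0.027) and Pdlim3 (-0.39 ± 0.10, adjusted p = 0.0404) were lower as well. Of the relatives, Smyd5 (-0.62 ± 0.11, adjusted p = 0.0114) and Xirp2 (-1.44 ± 0.32, adjusted p = 0.0283) were lower in the Cry2 knockdown. Xirp2 was at 5.80, 8.45 and 52.1 CPM there and at 10.2, 29.9 and 155 CPM in the Cry1 knockdown. Calls of these genes were not recomputed with single libraries left out.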
